A study of Mus musculus with 22 samples.

Results

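The fetal globin silencing factors are the transcription factors and RNA-binding protein that keep the fetal and embryonic globin genes off in adult red cells, or that set when this shutdown happens. The 8 genes described here were taken by name, out of 21938 protein-coding genes of the GENCODE annotation of the mouse genome (build mm10): Bcl11a, Zbtb7a, Sox6, Klf3, Hic2, Lin28b, Nfia and Nfix. For each gene, the body and 20 kb on each side (its locus) were searched for peaks of 2 histone marks. The cells were G1E-ER4, a clonal erythroid progenitor line made from GATA1-null mouse embryonic stem cells and carrying GATA1 fused to the ligand-binding domain of the estrogen receptor. All samples, including the untreated ones at 0 h, therefore lacked endogenous GATA1, carried the fusion protein and were grown with stem cell factor and erythropoietin. β-estradiol at 1e-07 M switched the fusion protein on, and chromatin was taken after 0, 2, 6, 12 and 24 h, with 2 peak lists per time point for trimethylated lysine 4 of histone H3 (H3K4me3) and 2 for acetylated lysine 27 (H3K27ac). CTCF, an insulator-binding protein, had 1 list at 0 h and 1 at 24 h.

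H3K4me3 is deposited around the start sites of active or poised genes, and H3K27ac at active start sites and enhancers. Bcl11a and Zbtb7a (also called LRF) each bind the fetal globin promoters and recruit the NuRD corepressor complex, Sox6 works with Bcl11a, and Klf3 is a repressor of the Krüppel-like family that is itself a target of Klf1 in red cells. Hic2 and Lin28b act upstream of Bcl11a: Hic2 represses Bcl11a transcription in fetal cells, and Lin28b is an RNA-binding protein that lowers Bcl11a protein output. Nfia and Nfix are nuclear factor I proteins, which activate Bcl11a or close the fetal globin promoters in adult erythroid cells.

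A peak is a stretch that the authors' caller marked as enriched. Peaks of the 10 lists of a mark that touched were merged into 16244 H3K4me3 and 24299 H3K27ac regions across the genome, and the value of a region in a list is its covered length, the number of bp that peaks of that list cover. The lists held 12925 to 14452 H3K4me3 peaks and 17247 to 18333 H3K27ac peaks, the 2 CTCF lists 33193 and 41473. Both H3K4me3 lists at 0 h (14014 and 14452 peaks) held more peaks than both at 24 h (12925 and 13071). Over the whole genome, 3.88% of H3K4me3 regions had a peak in both lists at 0 h and in neither at 24 h. The opposite pattern was seen in 0.456%. Read depth is unknown, so a region with no peak had no enrichment past the caller's threshold, which is not an absence of the mark. A shorter or missing peak in these bulk samples can come from fewer cells with the mark or from less mark per cell, and these cannot be told apart. The paper's methods call the repeats independent experiments, and the labels do not say whether these were separate cultures. The p-values measure the spread between the 2 lists of a time point.

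The start sites of these genes differed widely in their marks. H3K4me3 covered a start site of a protein-coding transcript in all 10 lists for 7 of the 8 genes, the exception being Bcl11a, where 43.7% of all protein-coding genes had such a peak and 54% had none in any list. H3K27ac covered a start site in all 10 lists for 4 genes (Sox6, Lin28b, Nfia and Nfix), with 38.5% in all protein-coding genes. Klf3 had an H3K27ac peak over a start site in 7 lists, Hic2 in 3, Zbtb7a in 2 and Bcl11a in none. Thus Bcl11a, the best known fetal globin repressor, was the only gene of the 8 with neither mark at any of its 4 annotated starts, and no peak lay within 2 kb of them in any of the 20 histone lists.

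**Figure D1:**
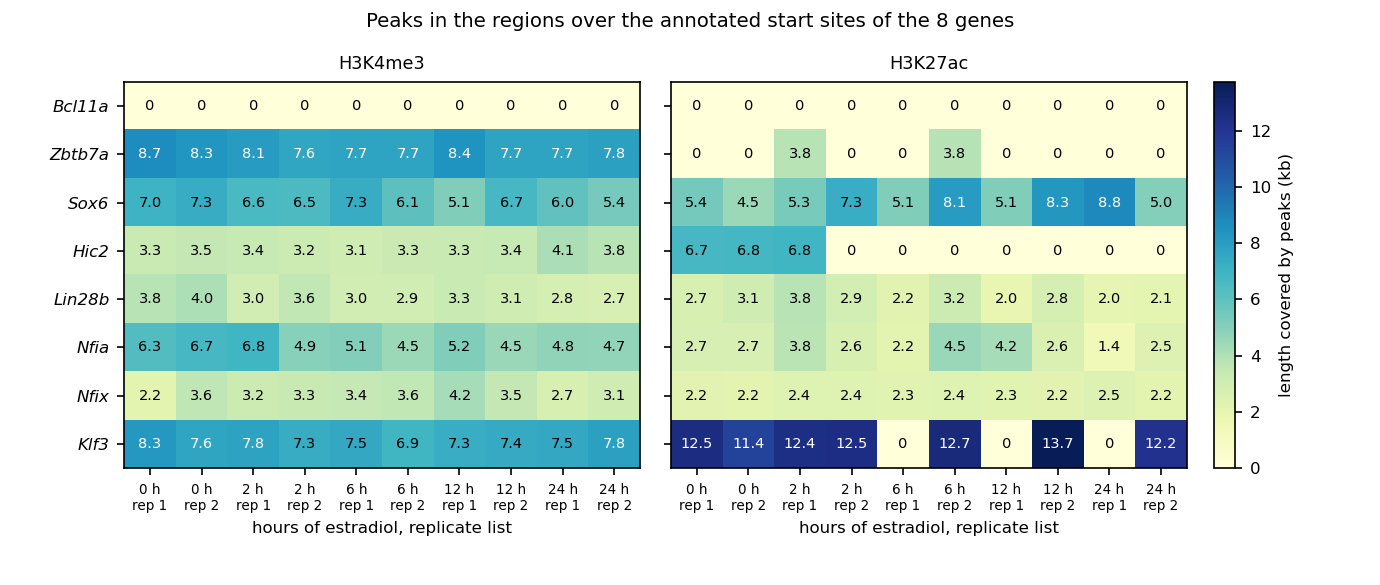
Length covered by peaks, in kb, in the regions over the annotated start sites of the 8 genes, by gene (rows) and by list (columns, hours of estradiol and replicate) for H3K4me3 and H3K27ac; regions of a gene with several marked starts are summed. Bcl11a is at 0 in all lists, Hic2 has its H3K27ac start domain only in the 0 h lists and the first 2 h list, and Klf3 is at 0 in 3 of the 10 H3K27ac lists.

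Within the 8 loci there were 36 H3K4me3 regions, of which 22 (61.1%) were present in all 10 lists, compared with 70.8% of regions across the genome. There were 55 H3K27ac regions, of which 21 (38.2%) were in all 10 lists, compared with 54.4% across the genome. Of the H3K27ac regions 29 lay in introns, 10 over a start site of the gene, 4 over other exons, 7 in the flanks and 5 over a start site of a neighbouring gene. The H3K4me3 regions were 15 intronic, 11 at a start site, 2 exonic, 3 in the flanks and 5 at the starts of neighbours. By gene, Sox6 had the most H3K27ac regions (16), followed by Nfia (10) and Nfix (8), and Bcl11a, Zbtb7a and Klf3 had 3 each. These gene bodies measured 567925, 346141, 100469, 96068, 17776 and 29514 bp in that order. The counts therefore come from loci of unlike length and are not rates.

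Between 0 and 24 h, the changes that passed the test at these loci were all reductions. By limma with Benjamini-Hochberg adjustment over all regions of the mark, 4 of the 50 tested H3K27ac regions became shorter and 0 longer (8% against 3.02% shorter and 3.3% longer across the genome). Of these 4, the Sox6 region at +455.9 kb from the main start had peaks only at 0 h, so that it had to differ. The Nfix region at -42.0 kb overlapped an exon of Dand5 and cannot be assigned to Nfix. For H3K4me3, 2 of the 33 tested regions became shorter and 0 longer (6.06% against 1.11% and 0.471% across the genome). A region needed a peak in at least 2 lists to be tested, which left out 5 H3K27ac and 3 H3K4me3 regions seen in a single list. At an unadjusted p under 0.05 by limma there were 8 of the 50 H3K27ac and 10 of the 33 H3K4me3 regions. Across the genome there were 4444 of 21011 H3K27ac and 1841 of 14862 H3K4me3 regions. The median difference was -0.13 on the log2 scale for the members' H3K27ac regions, with 0.01 over all regions, and -0.21 for H3K4me3, with -0.04 over all regions. All differences are on the scale of log2(covered bp + 200), which understates changes of short regions.

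By presence alone, 4 of the 55 H3K27ac regions were lost, with a peak in both 0 h lists and in neither 24 h list (7.27%, with 4.18% across the genome), and 0 were gained (3.43% across the genome). Of the 36 H3K4me3 regions, 2 were lost (5.56%, with 3.88% across the genome) and 0 were gained (0.456% across the genome). Over any time point, the moderated F test of limma called 5 of 50 H3K27ac regions (10%, with 5.61% across the genome) and 0 of 33 H3K4me3 regions (1.25% across the genome). Of these 5, 3 had peaks at a single time point (Sox6 at +455.9 and +490.4 kb and Nfia at +52.3 kb), so that they passed the filter through that time point and had to differ. An exact permutation test of 2 lists against 2 cannot go below p = 0.333, so the calls rest on limma, which shares the spread over all 10 lists and over regions, and limma's assumption of normal noise is not met by a region that has a peak in some lists and none in others.

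**Figure D2:**
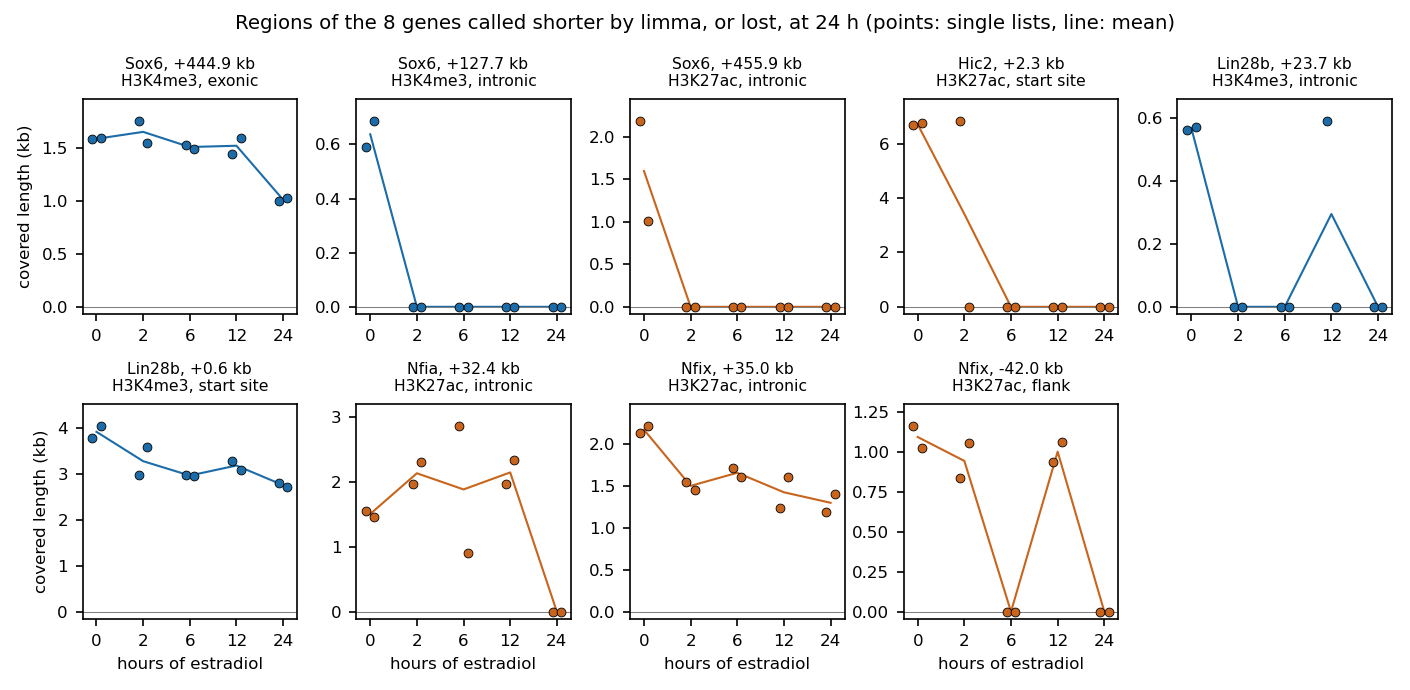
Covered length (kb) against hours of estradiol for the regions of the 8 genes that limma called shorter at 24 h or that were lost by presence, for H3K4me3 and H3K27ac; points are single lists, lines join the means of 2 lists, and distances in the titles are from the gene's main start. The H3K27ac regions in Sox6 at +455.9 kb and in Nfia at +32.4 kb reach 0 in both 24 h lists, whereas the Nfix region at +35.0 kb stays between 1189 and 1410 bp there.

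The intronic stretches that carried these results, and the most often marked intronic region of Bcl11a, are shown as 300 bp. They come from the mouse genome (GRCm38.p6, which has the coordinates of mm10), each from the middle of the part covered by the most lists. They are written 5′ to 3′ on the plus strand, with capitals marking GATA motifs (either AGATAA or AGATAG, and likewise either TGATAA or TGATAG, on either strand), the letters that GATA1 is known to prefer. They lie at chr11:24099161-24099460 (Bcl11a, H3K4me3 in 9 lists), chr7:115538618-115538917 (Sox6, H3K27ac in 2 lists), chr4:97809673-97809972 (Nfia, H3K27ac in 8 lists), chr8:84737889-84738188 (Nfix, H3K27ac in 10 lists) and chr10:45399882-45400181 (Lin28b, H3K27ac in 10 lists, shown as an intronic region with peaks in all lists).
Bcl11a intronic: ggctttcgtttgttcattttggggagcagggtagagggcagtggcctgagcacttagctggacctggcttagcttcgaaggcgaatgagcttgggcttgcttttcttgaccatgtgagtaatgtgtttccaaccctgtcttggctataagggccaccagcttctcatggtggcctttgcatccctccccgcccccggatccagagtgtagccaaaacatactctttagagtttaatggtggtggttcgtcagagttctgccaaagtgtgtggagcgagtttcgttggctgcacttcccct
Sox6 intronic: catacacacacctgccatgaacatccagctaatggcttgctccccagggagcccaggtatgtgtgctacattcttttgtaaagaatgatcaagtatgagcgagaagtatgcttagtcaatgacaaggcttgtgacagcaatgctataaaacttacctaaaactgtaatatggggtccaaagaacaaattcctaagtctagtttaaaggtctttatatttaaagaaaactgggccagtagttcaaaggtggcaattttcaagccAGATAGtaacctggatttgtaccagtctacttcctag
Nfia intronic: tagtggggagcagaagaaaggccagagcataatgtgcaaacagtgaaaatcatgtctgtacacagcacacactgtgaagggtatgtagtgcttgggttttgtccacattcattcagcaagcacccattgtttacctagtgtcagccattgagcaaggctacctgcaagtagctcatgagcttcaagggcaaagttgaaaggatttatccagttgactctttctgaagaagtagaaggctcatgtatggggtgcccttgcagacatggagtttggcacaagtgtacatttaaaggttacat
Nfix intronic: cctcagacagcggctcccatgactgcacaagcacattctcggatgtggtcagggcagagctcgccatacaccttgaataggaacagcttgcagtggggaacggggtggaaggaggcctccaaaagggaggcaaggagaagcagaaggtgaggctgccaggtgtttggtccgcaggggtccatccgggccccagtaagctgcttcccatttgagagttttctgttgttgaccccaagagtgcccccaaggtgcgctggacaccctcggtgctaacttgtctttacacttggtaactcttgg
Lin28b intronic: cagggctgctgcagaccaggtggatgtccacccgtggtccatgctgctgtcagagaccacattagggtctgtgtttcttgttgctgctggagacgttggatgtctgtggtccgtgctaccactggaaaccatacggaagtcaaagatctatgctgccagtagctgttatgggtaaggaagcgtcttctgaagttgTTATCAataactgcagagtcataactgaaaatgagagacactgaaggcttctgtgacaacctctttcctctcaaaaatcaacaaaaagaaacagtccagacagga

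The Sox6 window, the only one marked solely before estradiol, held 1 motif (AGATAG on the plus strand). The Lin28b window, marked at all times, held 1 (TGATAA on the minus strand), and the Bcl11a, Nfia and Nfix windows held none, which says only that these letters are not in these 300 bp. Such a motif was found in 16 of the 29 windows of intronic H3K27ac regions of the 8 genes (55.2%) and in 24 of all their 55 H3K27ac windows (43.6%), compared with 39.5% of windows of the same size over all H3K27ac regions. In their start-site H3K27ac windows it was found in 2 of 10 (20%). The shares over all regions are not split by place, so that the intronic shares have no like background. Of the start-site H3K4me3 windows, 1 of 11 held it (9.09%), and of the intronic H3K4me3 windows 6 of 15 (40%), with 28.2% over all H3K4me3 regions.

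Bcl11a, the zinc finger repressor of the fetal globin genes, carried few and weak peaks. Its most often marked region was an intronic H3K4me3 region 21.3 kb downstream of the main start (chr11:24098492-24100416), the Bcl11a sequence printed above. Covered length there was 1708 and 1716 bp before estradiol (0 h), 1710 and 1115 after 2 h, 0 and 885 after 6 h, 1445 and 1426 after 12 h and 1255 and 1694 after 24 h. Only the first 6 h list had no peak, the 0 h and 24 h lists came close to each other, and the difference of -0.20 (SE 0.66, adjusted p = 0.97 by limma with Benjamini-Hochberg adjustment) did not pass the test. The peaks ranked low, between the percentiles 0.23 and 20.4 of the scores in their lists. A second intronic H3K4me3 region at +15.0 kb was seen in 2 lists, with 1303 bp in the second 0 h list and 984 bp in the second 6 h list.

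H3K27ac in Bcl11a appeared in 3 regions, none of them in all lists. The region at +79.0 kb, over an exon, was present in 8 lists with 2126 to 4656 bp and absent from the first list at 0 h and the first at 24 h. The intronic region at +70.0 kb had 1771 bp in the second 0 h list, 2481 bp in a 6 h list, 2667 bp in a 12 h list, and 5206 and 2387 bp at 24 h. The third, at +29.9 kb, was seen in the second 6 h list (2193 bp) and the first 12 h list (4801 bp). The 24 h lists therefore both had a peak at +70.0 kb and the 0 h lists differed from each other, and the difference of 2.57 did not pass the test (95% interval -1.73 to 6.88, adjusted p = 0.51 by limma with Benjamini-Hochberg adjustment).

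Zbtb7a, the other repressor that binds the fetal globin promoters directly, had the longest H3K4me3 domain over a start site of its own among the 8 genes (chr10:81133560-81142383, which also reaches an exon of the neighbouring Map2k2). Covered length was 8725 and 8324 bp at 0 h, 8064 and 7584 after 2 h, 7713 and 7724 after 6 h, 8409 and 7707 after 12 h and 7709 and 7842 after 24 h. The 24 h values lay below those at 0 h, and the difference of -0.13 did not pass the test (SE 0.08, adjusted p = 0.63 by limma with Benjamini-Hochberg adjustment). H3K27ac over these starts was called in only 2 lists, the first 2 h list (3786 bp) and the second 6 h list (3840 bp), although those peaks ranked at percentiles 71.3 and 79.9 of their lists. The exonic H3K27ac region at +10.2 kb was likewise irregular, with 2425 to 2729 bp in 4 lists of different times and no peak in the other 6.

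Sox6, the partner of Bcl11a at the globin locus and the longest of these genes, had the widest spread of marked sites. Its main annotated start (transcript Sox6-201) had no peak of either mark within 2 kb, and the starts with H3K4me3 lay upstream of it. At -37.7 kb, over the start of Sox6-202, H3K4me3 covered 4476 and 4595 bp at 0 h, 4448 and 4303 after 2 h, 4401 and 4375 after 6 h, 3921 and 4179 after 12 h and 3906 and 4126 after 24 h. Both 24 h values were below both 0 h values, a difference of -0.17 (SE 0.05) that did not pass the test (adjusted p = 0.23 by limma with Benjamini-Hochberg adjustment).

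The H3K4me3 region at -44.2 kb, over the start of Sox6-204 and shared with the neighbouring 1110004F10Rik, covered 2522 and 2721 bp at 0 h, 2200 and 2243 after 2 h, 2922 and 1703 after 6 h, 1197 and 2520 after 12 h and 2054 and 1245 after 24 h (difference -0.64, SE 0.36, adjusted p = 0.56 by limma with Benjamini-Hochberg adjustment). H3K27ac at -37.6 kb was in all lists, and it covered 2851 and 2346 bp at 0 h, 2825 and 3933 after 2 h, 2712 and 4812 after 6 h, 2674 and 2466 after 12 h and 2596 and 2475 after 24 h (difference -0.03, 95% interval -0.67 to 0.62). At -44.2 kb both 24 h values lay below both 0 h values, and at -37.6 kb the 24 h values lay between those at 0 h. An H3K27ac region at +151.8 kb, over the start of the short transcript Sox6-203, covered 2574 and 2137 bp at 0 h, 2503 and 3318 after 2 h, 2400 and 2571 after 6 h, 2469 and 5808 after 12 h and 6228 and 2552 after 24 h. The 2 long values were each in a single list of their time point, and a further H3K27ac region over a start, at +135.4 kb, was seen only in the second 6 h list (671 bp).

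Inside Sox6, 2 regions changed between 0 and 24 h. The intronic H3K27ac region at +455.9 kb (chr7:115538142-115540325, the Sox6 sequence printed above) covered 2184 and 1012 bp at 0 h and 0 bp in all 8 lists from 2 h on. It fell by 24 h with a difference of -3.09 (SE 0.38, 95% interval -4.0 to -2.17, adjusted p = 0.0046, F test adjusted p = 0.011, by limma with Benjamini-Hochberg adjustment). Because only the 0 h lists had a peak, this region had to differ, it could not be tested without either of them, and its peaks ranked at percentiles 10.3 and 15.8 of their lists. At +490.4 kb a region was present only in the 2 h lists (714 and 536 bp, F test adjusted p = 0.015 by limma with Benjamini-Hochberg adjustment), with the same limit.

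Nearby, the H3K4me3 region over an exon at +444.9 kb (chr7:115549288-115551040) covered 1583 and 1590 bp at 0 h, 1753 and 1551 after 2 h, 1524 and 1494 after 6 h, 1444 and 1598 after 12 h and 996 and 1026 after 24 h. The 8 lists up to 12 h lay close together and both 24 h lists fell below all of them, with a difference of -0.56 (SE 0.10, 95% interval -0.79 to -0.33, adjusted p = 0.041 by limma with Benjamini-Hochberg adjustment). The call was not made without either list at 0, 6, 12 or 24 h (adjusted p 0.051 to 0.24 by limma). H3K27ac over the same place (+445.6 kb) covered 5811 and 5219 bp at 0 h, and by 24 h 3733 and 3082 bp, with 3695 to 5992 bp in between, and did not pass the test (difference -0.67, SE 0.27, adjusted p = 0.22).

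A cluster of short intronic H3K4me3 regions between +127.7 and +164.3 kb had fewer or shorter peaks in the later lists. The region at +127.7 kb had 589 and 686 bp at 0 h and 0 bp in the other 8 lists, so that it was lost by presence (difference -2.06, SE 0.43, adjusted p = 0.07 by limma with Benjamini-Hochberg adjustment). At +164.3 kb covered length was 1115 and 1054 bp at 0 h, then 1248 and 627 after 2 h, 1411 and 529 after 6 h, 0 in both lists at 12 h and 0 and 610 after 24 h. At +150.1 kb it was 1446 and 1761 bp at 0 h, 882 and 1034 after 2 h, 847 and 685 after 6 h, 0 and 624 after 12 h and 574 and 0 after 24 h. In both regions the 0 h values exceeded the 24 h values, and neither difference passed the test (-1.67, adjusted p = 0.37, and -2.19, adjusted p = 0.29, by limma with Benjamini-Hochberg adjustment). H3K27ac had peaks in all lists at these places, in the region at +151.8 kb described above, which contains the H3K4me3 region at +150.1 kb, and in 2 others: at +164.1 kb it covered 2734 to 3646 bp (difference -0.11, 95% interval -0.44 to 0.23) and at +128.4 kb 1275 to 1872 bp (difference -0.17, 95% interval -0.61 to 0.26).

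**Figure D3:**
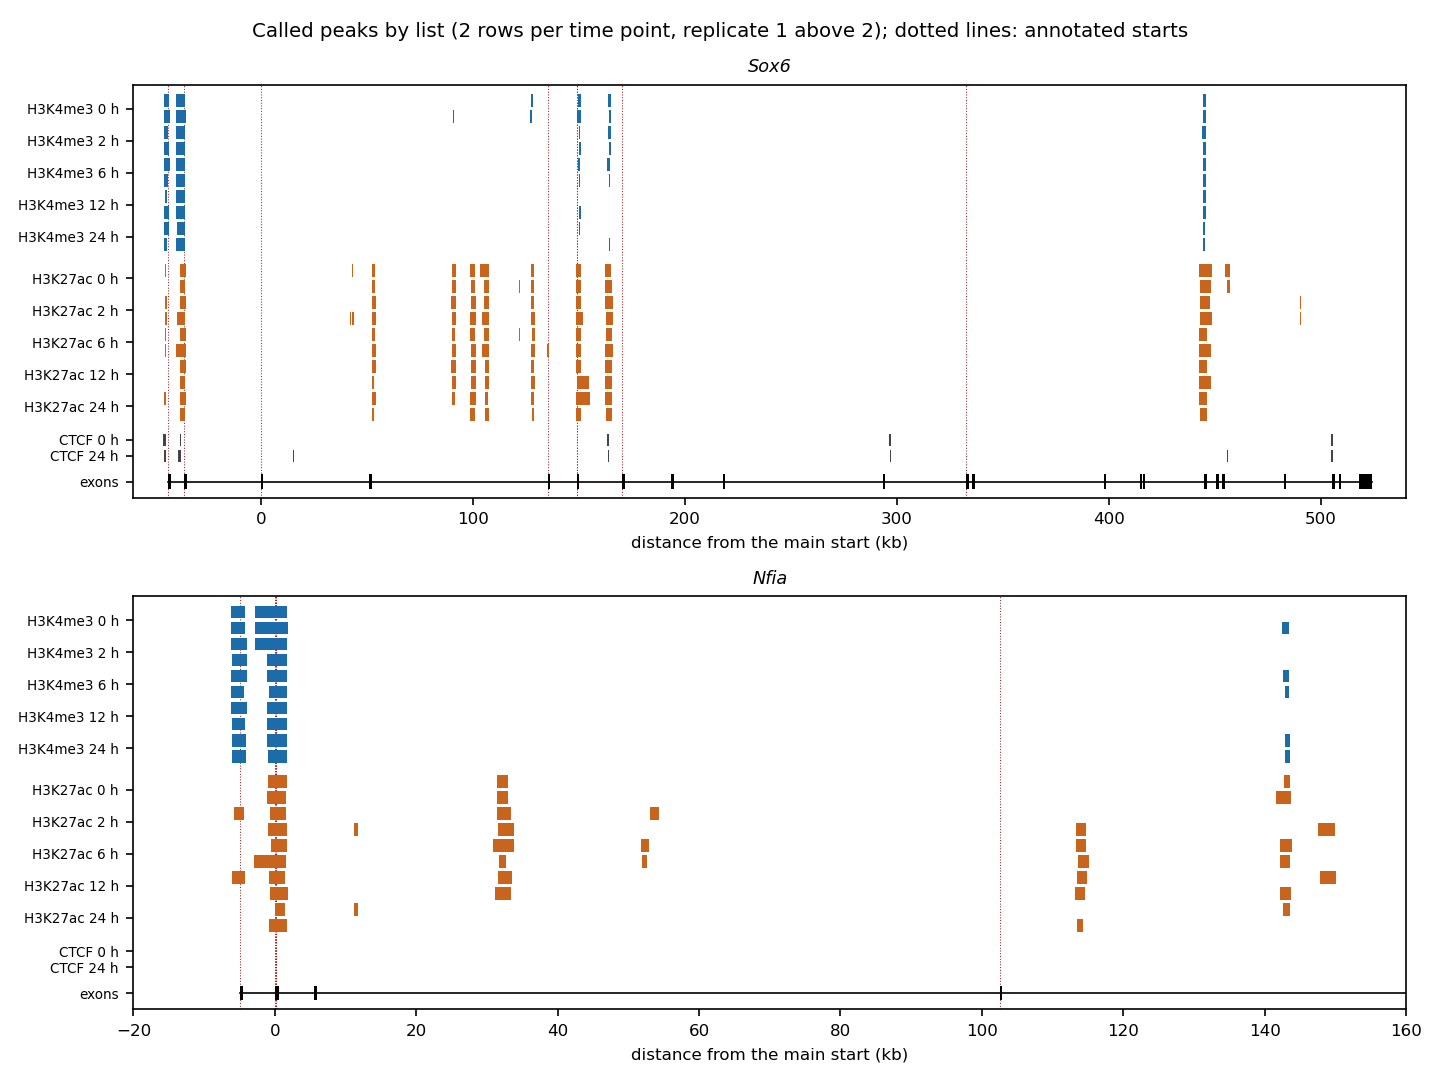
Peaks of every list along Sox6 and the upstream part of Nfia, by distance from the main start (kb, along the direction of transcription); each row is a list, ordered by hours of estradiol for H3K4me3, H3K27ac and CTCF, and each bar is a peak. The Sox6 H3K27ac peak at +455.9 kb is present only in the 2 lists at 0 h, and the Nfia H3K27ac peak at +32.4 kb in all lists except the 2 at 24 h.

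Klf3, the Krüppel-like repressor, had H3K4me3 over 2 start domains in all lists. The region over the main start (chr5:64801772-64807145) covered 5182 and 4839 bp at 0 h, 5065 and 4925 after 2 h, 4760 and 4642 after 6 h, 4890 and 4905 after 12 h and 5222 and 5082 after 24 h (difference 0.04, 95% interval -0.08 to 0.16). The region over the starts of Klf3-202 and Klf3-205 at +9.1 kb covered 3077 and 2786 bp at 0 h, 2687 and 2397 after 2 h, 2714 and 2223 after 6 h, 2362 and 2471 after 12 h and 2273 and 2759 after 24 h (difference -0.21, 95% interval -0.49 to 0.07).

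H3K27ac in Klf3 formed a broad domain of 2 adjoining peaks over all these starts (chr5:64801869-64815791), which was either called over 11361 to 13739 bp or not at all. It covered 12541 and 11361 bp at 0 h, 12434 and 12472 after 2 h, 0 and 12712 after 6 h, 0 and 13739 after 12 h and 0 and 12152 after 24 h. The absent values were all in the first list of a time point whose second list held the whole domain, and the difference of -2.95 had a 95% interval of -9.92 to 4.02 (adjusted p = 0.61 by limma with Benjamini-Hochberg adjustment).

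The all-or-none calls of long H3K27ac domains were not particular to Klf3. Across the genome, 87.8% of H3K27ac regions whose longest peak measured 4 to 6 kb were in all 10 lists, against 69.4% at 6 to 8 kb and 29.4% of the 381 regions at 8 kb or more. For H3K4me3 the shares were 98.8%, 95.7% and 58.4%. The longest peak in any H3K4me3 list measured 9200 bp, and in any H3K27ac list 8973 bp. The longest H3K27ac peaks at the Klf3 and Hic2 starts (7041 and 6833 bp) fell in the class of 6 to 8 kb, and those at the Zbtb7a start in that of 2 to 4 kb, of which 81.6% were in all lists. The part of peak length in the missing domains of Klf3 and Hic2 was not tested.

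**Figure D4:**
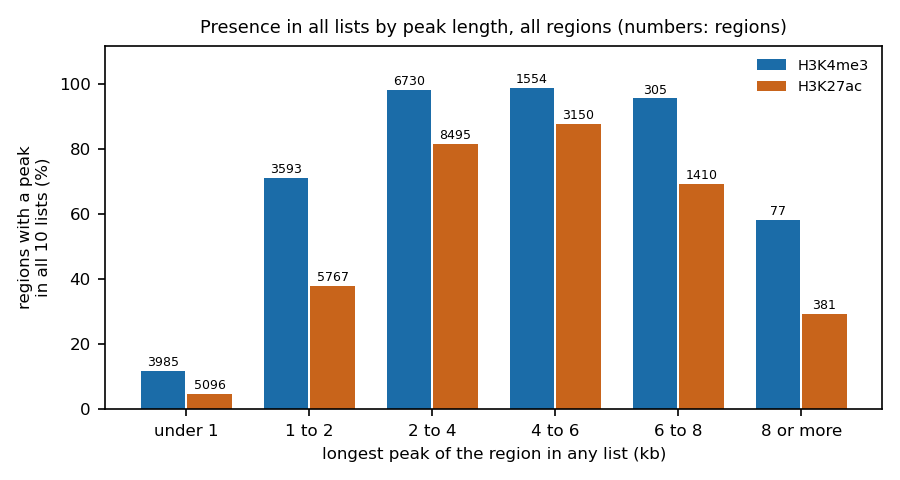
Percent of regions present in all 10 lists of a mark, by the length of the region's longest peak (kb), for all H3K4me3 and H3K27ac regions of the genome. Presence rises from 11.8% and 4.67% below 1 kb to 98.8% and 87.8% at 4 to 6 kb and drops to 58.4% and 29.4% at 8 kb or more.

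Hic2, the repressor of Bcl11a transcription, differed between the 2 marks at its start. H3K4me3 there (chr16:17232565-17236657) covered 3282 and 3508 bp at 0 h, 3417 and 3173 after 2 h, 3086 and 3254 after 6 h, 3325 and 3410 after 12 h and 4090 and 3766 after 24 h. Both 24 h lists were the highest of the 10, and the difference of 0.20 (SE 0.06) did not pass the test (adjusted p = 0.23 by limma with Benjamini-Hochberg adjustment).

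H3K27ac at the Hic2 start (chr16:17232470-17239349) covered 6674 and 6756 bp at 0 h, then 6833 and 0 after 2 h and 0 in the 6 lists from 6 to 24 h. It was lost by presence, with a difference of -5.11 (SE 1.45, 95% interval -8.60 to -1.62) that did not pass the test (adjusted p = 0.10 by limma with Benjamini-Hochberg adjustment), the 2 lists at 2 h being the most unlike each other. With the 4 lists at 0 and 24 h alone the adjusted p was 0.0072, and without the first or the second 2 h list it was 0.00086 or 0.00078 (limma with Benjamini-Hochberg adjustment). Over the 16 alternatives that could test it the adjusted p ran from 0.00078 to 0.27, and 3 made the call. As given above, 69.4% of H3K27ac regions of its length class were in all lists.

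Further along Hic2, the H3K27ac region over an exon at +19.0 kb was called only in the first 12 h list (7295 bp) and the first 24 h list (5205 bp), where H3K4me3 (+19.8 kb) was present in 9 lists with 959 to 3895 bp. The intronic H3K4me3 region at +16.2 kb had 1030 bp in a 2 h list, 616 and 776 bp at 6 h, and 845 bp in a 12 h list. In the upstream flank, H3K27ac at -16.4 kb was present in all 10 lists, with 2484 and 2299 bp at 0 h, and by 24 h 1886 and 2017 bp (difference -0.27, SE 0.10, adjusted p = 0.18 by limma with Benjamini-Hochberg adjustment).

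Lin28b, the RNA-binding protein of the fetal program, had a shorter H3K4me3 domain at its start after estradiol (chr10:45467585-45471708). Covered length was 3781 and 4034 bp at 0 h, 2963 and 3576 after 2 h, 2966 and 2949 after 6 h, 3274 and 3077 after 12 h and 2799 and 2699 after 24 h. Both 0 h values were the highest and both 24 h values the lowest of the 10, and the region fell by 0.48 on the log2 scale (SE 0.08, 95% interval -0.67 to -0.28, adjusted p = 0.04 by limma with Benjamini-Hochberg adjustment). This call, too, was not made without either list at 0, 6, 12 or 24 h (adjusted p 0.063 to 0.22 by limma). H3K27ac over the start covered 2665 and 3104 bp at 0 h, 3788 and 2868 after 2 h, 2212 and 3205 after 6 h, 1974 and 2817 after 12 h and 2004 and 2101 after 24 h, a difference of -0.45 that did not pass the test (SE 0.23, adjusted p = 0.35).

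No other Lin28b site passed the test. At -15.8 kb, over the starts of non-coding Lin28b transcripts, H3K4me3 covered 2201 to 2682 bp (difference 0.07, 95% interval -0.14 to 0.29) and H3K27ac 1857 to 2274 bp (0.11, -0.10 to 0.32), both in all lists. The intronic H3K27ac region at +70.4 kb, the Lin28b sequence printed above, covered 2159 to 2933 bp in all lists (0.13, -0.13 to 0.40), and H3K4me3 there 726 to 1101 bp. The intronic H3K4me3 region at +23.7 kb had 563 and 572 bp at 0 h, 590 bp in the first 12 h list and 0 bp elsewhere, so that it was lost by presence (difference -1.94, adjusted p = 0.27 by limma with Benjamini-Hochberg adjustment). H3K27ac at nearly the same place (+23.8 kb) showed no peak at 0 h and 629 to 838 bp in 5 later lists.

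**Figure D5:**
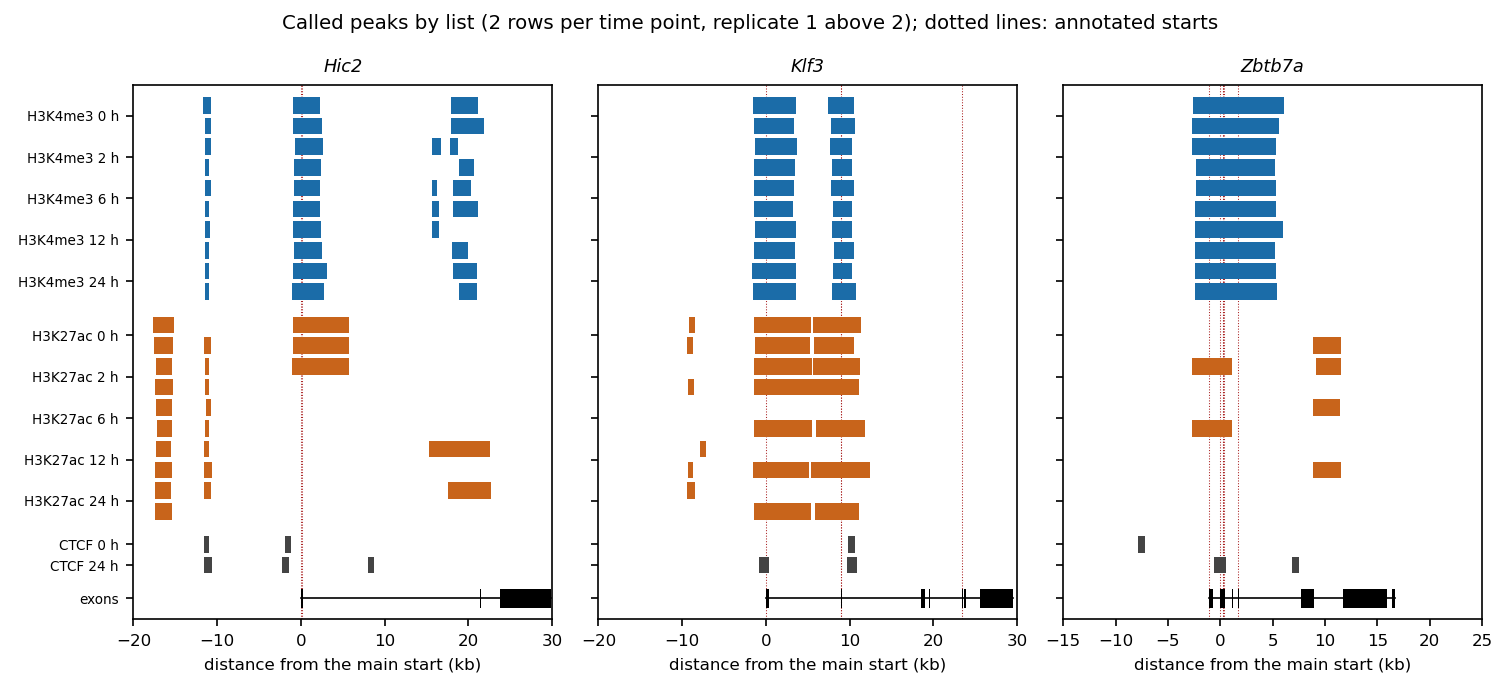
Peaks of every list around the start domains of Hic2, Klf3 and Zbtb7a, by distance from the main start (kb, along the direction of transcription); each row is a list, ordered by hours of estradiol, in separate blocks for H3K4me3, H3K27ac and CTCF above the exons, with dotted lines at annotated starts. The Hic2 H3K27ac domain is present in 3 lists, the Klf3 domain in 7, and the Zbtb7a domain in 2, while the H3K4me3 domains at the same starts are in all 10.

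Nfia, a nuclear factor I protein, lost an intronic H3K27ac site late. The region at +32.4 kb (chr4:97808529-97811489, the Nfia sequence printed above) covered 1554 and 1449 bp at 0 h, then 1960 and 2295 after 2 h, 2854 and 904 after 6 h, 1956 and 2325 after 12 h and 0 in both 24 h lists. All 8 lists up to 12 h had the peak, at percentiles 10.6 to 25.5 of their scores, and neither 24 h list did. The difference was -3.09 (SE 0.44, 95% interval -4.15 to -2.02, adjusted p = 0.0081, F test adjusted p = 0.014, by limma with Benjamini-Hochberg adjustment), and without the first 0 h list the adjusted p was 0.052.

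Other intronic H3K27ac regions of Nfia came and went. The region at +52.3 kb was present only at 6 h (1102 and 658 bp, F test adjusted p = 0.014 by limma with Benjamini-Hochberg adjustment) and so had to differ. At +114.2 kb there was no peak at 0 h, then 0 and 1317 bp after 2 h, 1452 and 1505 after 6 h, 1356 and 1309 after 12 h and 0 and 918 after 24 h, which did not pass the F test (adjusted p = 0.46 by limma with Benjamini-Hochberg adjustment). The region at +142.7 kb was present in 6 lists of different times with 819 to 2214 bp.

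At the Nfia starts, H3K4me3 at -0.5 kb (chr4:97774736-97779418, shared with the neighbouring E130114P18Rik) covered 4429 and 4683 bp at 0 h, 4614 and 2880 after 2 h, 2800 and 2660 after 6 h, 2852 and 2742 after 12 h and 2771 and 2628 after 24 h. The values fell into 2 levels, at 4429 to 4683 bp in the 0 h lists and the first 2 h list and at 2628 to 2880 bp in the other 7. The difference of -0.71 (SE 0.17, 95% interval -1.12 to -0.31) did not pass the test over all lists (adjusted p = 0.12 by limma with Benjamini-Hochberg adjustment), whereas with the 4 lists at 0 and 24 h alone the adjusted p was 0.032, and without the first or the second 2 h list 0.0049 or 0.0051. Over the 17 alternatives that could test it the adjusted p ran from 0.0049 to 0.45, and 3 made the call. H3K4me3 at -5.0 kb, over the start of Nfia-208, covered 1919 and 2000 bp at 0 h, 2210 and 2061 after 2 h, 2277 and 1824 after 6 h, 2298 and 1800 after 12 h and 1984 and 2088 after 24 h (difference 0.05, 95% interval -0.25 to 0.35). H3K27ac at -0.5 kb covered 2718 and 2702 bp at 0 h, 2344 and 2648 after 2 h, 2184 and 4549 after 6 h, 2263 and 2559 after 12 h and 1409 and 2516 after 24 h. Both 24 h values lay below both at 0 h without passing the test (difference -0.48, adjusted p = 0.54 by limma with Benjamini-Hochberg adjustment), and at -5.1 kb H3K27ac was called in the first 2 h list (1409 bp) and the first 12 h list (1945 bp) only.

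Nfix, the other nuclear factor I protein, had the highest ranked start domain of the 8 genes. At -26.4 kb, over the starts of Nfix-201, Nfix-202 and Nfix-205, H3K4me3 peaks stood at percentiles 90.7 to 98.9 of their lists and H3K27ac peaks at 85.9 to 94.5. H3K4me3 there covered 2197 and 2483 bp at 0 h, 2406 and 2493 after 2 h, 2597 and 2664 after 6 h, 2680 and 2541 after 12 h and 2670 and 2362 after 24 h (difference 0.10, 95% interval -0.08 to 0.28). H3K27ac covered 2205 and 2161 bp at 0 h, 2406 and 2381 after 2 h, 2297 and 2385 after 6 h, 2278 and 2204 after 12 h and 2500 and 2188 after 24 h (0.09, -0.09 to 0.27). For both marks the values at 0 and 24 h overlapped. Near the main start, a region at -0.8 kb had short H3K4me3 peaks and no H3K27ac, with 0 and 1147 bp at 0 h, 790 and 839 after 2 h, 838 and 896 after 6 h, 1533 and 985 after 12 h and 0 and 744 after 24 h. Its peaks reached the main start itself in 1 list and the start of Nfix-203 in 6.

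Inside Nfix, the intronic H3K27ac region at +35.0 kb (chr8:84736978-84739716, the Nfix sequence printed above) covered 2128 and 2216 bp at 0 h, 1551 and 1452 after 2 h, 1710 and 1605 after 6 h, 1242 and 1608 after 12 h and 1189 and 1410 after 24 h. Both 0 h values lay above all later ones, and the region fell by 0.67 on the log2 scale to 24 h (SE 0.14, 95% interval -1.01 to -0.32, adjusted p = 0.047 by limma with Benjamini-Hochberg adjustment). The call was not made without either list at 0, 2, 6 or 24 h (adjusted p 0.067 to 0.19 by limma). H3K4me3 at this place (+35.3 kb) covered 641 to 1248 bp in all lists (difference -0.23, 95% interval -0.73 to 0.27), and the neighbouring H3K27ac region at +42.4 kb 3130 to 5545 bp (difference -0.41, 95% interval -1.21 to 0.39).

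The flank H3K27ac region at -42.0 kb (chr8:84814734-84816086) overlapped an exon of Dand5 and cannot be assigned to Nfix. It covered 1164 and 1026 bp at 0 h, 835 and 1055 bp at 2 h, 0 bp in both lists at 6 h, 940 and 1066 bp at 12 h, and 0 bp in both at 24 h. The 2 lists of each time point were alike, with peaks at 0, 2 and 12 h and none at 6 and 24 h, and the difference between 24 and 0 h was -2.69 (SE 0.29, 95% interval -3.40 to -1.99, adjusted p = 0.0028 by limma with Benjamini-Hochberg adjustment).

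Summed over whole loci, no gene of the 8 passed the test between 0 and 24 h for either mark (0 of 8, with 1.1% of all H3K4me3 loci and 5.32% of all H3K27ac loci called by limma with Benjamini-Hochberg adjustment). At an unadjusted p under 0.05 there were 2 H3K4me3 loci, Sox6 and Lin28b, and 1 H3K27ac locus, Nfia. Across the genome there were 1574 of 13679 H3K4me3 and 2930 of 13938 H3K27ac loci. The H3K4me3 difference was below 0 for 8 of 8 genes, with a median of -0.22, compared with 59.6% of all loci and a median of -0.026. The sums include regions over the starts of neighbouring genes, so that their direction is not that of the named gene alone. At Nfix, the H3K4me3 region over the Lyl1 start averaged 8255 of the 21717 bp at 0 h. At Zbtb7a, all H3K27ac at 24 h (4272 and 3782 bp) lay in the region over the Pias4 start. With higher-scoring peaks only (scores at or above the median of all peaks pooled over the lists of the mark), 3 of the 5 loci that had a value were above 0. The H3K27ac difference was below 0 for 6 of 8 genes, with a median of -0.38, compared with 41% of all loci and a median of 0.049, and with flanks of 50 kb for 4 of 8. The Sox6 locus had 11731 and 13010 bp of H3K4me3 at 0 h, 10531 and 9758 after 2 h, 11105 and 8786 after 6 h, 6562 and 8921 after 12 h and 7530 and 7007 after 24 h. The 24 h lists lay below all lists up to 6 h, and the difference was -0.75 (SE 0.15, 95% interval -1.10 to -0.40, adjusted p = 0.078 by limma with Benjamini-Hochberg adjustment). Over the 18 alternatives that gave a value the adjusted p ran from 0.04 to 0.3, and 3 made the call.

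H3K27ac over the Nfia locus was 5091 and 6365 bp at 0 h, 6915 and 9232 after 2 h, 9259 and 9055 after 6 h, 9717 and 7714 after 12 h and 3013 and 3434 after 24 h. It was higher in the 6 lists from 2 to 12 h than at 0 h and lowest at 24 h, with a difference from 0 to 24 h of -0.79 (SE 0.18, adjusted p = 0.057 by limma with Benjamini-Hochberg adjustment). Over any time point this locus passed the F test (adjusted p = 0.034 by limma with Benjamini-Hochberg adjustment). No other locus of these genes did so for either mark, and the share over all loci is not given here. H3K27ac over the Bcl11a locus had the largest difference in the other direction, 2.51 (95% interval -0.56 to 5.59, adjusted p = 0.34), with 0 and 3897 bp at 0 h, and by 24 h 5206 and 4744 bp. This value rests on the first 0 h list, in which the locus had no peak at all: without that list it was 0.34, and without the second 0 h list 4.69 (adjusted p = 0.035 by limma).

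The genes with the largest locus differences were Sox6 for H3K4me3 and Bcl11a for H3K27ac, and the genes whose covered length ran most like theirs over the 10 lists were sought. For Sox6 these were Ggnbp1 (Pearson r = 0.983), Ifi47 (0.962) and Grb2 (0.957) among 13350 candidates. For Bcl11a they were Pkm (0.957), Cpox (0.954), an enzyme of heme synthesis, and Ints1 (0.951) among 13523. These correlations describe 10 lists that share a time course and a peak caller, and no p is given for them. The Bcl11a locus had 0 bp of H3K27ac in the first 0 h list and 2537 to 9783 bp in the others. On the log2 scale that list lies far from the rest and weighs heavily in its correlations.

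CTCF had 35 peaks in the 8 loci at 0 h and 42 at 24 h, in lists of 33193 and 41473 peaks and with 1 list per time point, so that no difference can be tested. Nfix had 12 at each time, Sox6 6 and 8, Bcl11a 5 and 6, Hic2 4 and 6, Lin28b 4 and 4, Zbtb7a 2 and 3, Klf3 1 and 3, and Nfia 1 and 0. Shared between the lists were 31 peaks, which is 88.6% of those at 0 h and 73.8% of those at 24 h, compared with 92.1% and 73.3% across the genome. A CTCF peak covered a start site of its own gene at 0 of the 8 genes at 0 h and at 4 of 8 at 24 h (Bcl11a, Zbtb7a, Nfix and Klf3), and at 9.35% and 14.2% of all protein-coding genes. The new peaks at Zbtb7a, Nfix and Klf3 ranked at percentiles 10.9, 39 and 30.9 of their list. At Bcl11a the CTCF peak near the start was in both lists, and reached the start of Bcl11a-204 only in the 24 h list (1499 bp, against 689 bp at 0 h).

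CTCF met the histone regions that were called or lost at 3 places. Under the intronic Nfix H3K27ac region at +35.0 kb lay a CTCF peak of 1086 bp at 0 h and 1463 bp at 24 h (+35.7 kb), at percentiles 99.1 and 99.2 of the scores. At the Sox6 site that lost H3K27ac (+455.9 kb) a CTCF peak was called at 24 h only, at percentile 5.17. The flank region upstream of Nfix at -42.0 kb overlapped a CTCF peak at -42.4 kb in both lists, at percentiles 52.1 and 66.9. In the Hic2 flank, a CTCF peak at -11.3 kb stood at percentile 99.2 at 0 h and 91 at 24 h.

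Among other genes of the same pathway, all 17 corepressor genes (the NuRD complex, Kdm1a, Rcor1, Dnmt1, Ehmt1 and Ehmt2) had H3K4me3 over a start in all lists and 14 had H3K27ac, with none in any list for Mbd2, a methyl-DNA binding subunit. Of their loci, 0 changed in H3K4me3 and 1 of 17 became longer in H3K27ac: Kdm1a, the histone demethylase LSD1 (difference 0.89, adjusted p = 0.02 by limma with Benjamini-Hochberg adjustment). Of all loci, 1.1% were called for H3K4me3 and 5.32% for H3K27ac. By limma, an H3K27ac region became longer at Chd4 and Mbd3 and shorter at Rbbp4 (3 of 17 genes, with 12% of all genes that had a region in their locus). By presence alone, a region was gained at Kdm1a and Dnmt1 and lost at Mta1 and Hdac1, so that 7 of 17 had a region called or changed by presence, with 20.2% of all genes, and an H3K4me3 region was gained at Ehmt2 (1 of 17, with 6.64%). Of 15 upstream and other regulators, 13 had H3K4me3 and 11 had H3K27ac at a start in all lists, and Lin28a, the paralog of Lin28b, and Nr2f2 had neither mark. Among their 14 tested loci 1 changed, Arid3a, whose H3K27ac became shorter (-0.39, adjusted p = 0.038 by limma with Benjamini-Hochberg adjustment), with 5.32% of all H3K27ac loci called. A region was called or changed by presence at 2 of these 15 genes for each mark, against the shares of 20.2% and 6.64% above: for H3K27ac a gained one at Igf2bp1 and a lost one, also shorter by limma, at Igf2bp3, and for H3K4me3 a shorter one by limma at Igf2bp1 and a lost one at Bach1.

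Of 9 paralogs of the 8 genes, 2 had a start with H3K4me3 in all lists, and Bcl11b, Zbtb7c, Sox5, Hic1, Nfib and Klf12 had neither mark at a start in any list. The Nfib locus still became shorter in H3K27ac (-2.18, adjusted p = 0.035 by limma with Benjamini-Hochberg adjustment), 1 of 4 tested, with 5.32% of all H3K27ac loci called. Of the 7 globin genes, 4 had H3K4me3 over a start in all lists, and the embryonic Hbb-y, Hbb-bh1 and Hba-x had neither mark there. H3K27ac became longer over the overlapping loci of the adult Hbb-bt (1.31, adjusted p = 0.031) and Hbb-bs (0.94, adjusted p = 0.047, limma with Benjamini-Hochberg adjustment). These were 2 of 7 tested loci, with the same 5.32% over all loci.

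The cell type markers were read in the same lists. Of 9 erythroid markers, 6 had H3K4me3 over a start in all lists. Of their 8 tested H3K27ac loci, those of Slc4a1 (0.75) and Alas2 (0.93) became longer and that of Hemgn shorter (-1.09), with 5.32% of all loci called. The defining markers of neutrophils and monocytes (0 of 5), T cells (0 of 4), B cells (0 of 4) and megakaryocytes (0 of 4) had no H3K4me3 peak over a start in any list, while H3K27ac covered a start of 2 of the 4 megakaryocyte markers, Itga2b and Gp9, in all 10 lists. Summed over the 4 mast cell markers, H3K4me3 covered 17751 to 22560 bp at 0 h and 10360 to 10455 bp at 24 h, a decrease in which 1 of 4 loci passed the test (Cpa3, -2.47, adjusted p = 0.017 by limma with Benjamini-Hochberg adjustment), with 1.1% of all H3K4me3 loci called. Their H3K27ac ranged from 24811 to 26818 bp at 0 h and from 20167 to 30908 bp at 24 h. Of the 4 H3K27ac loci, 1 became shorter (Cpa3, -2.21, adjusted p = 0.043 by limma with Benjamini-Hochberg adjustment), with 5.32% of all H3K27ac loci called. Megakaryocyte markers had 12331 to 12924 bp of H3K4me3 at 0 h and 11374 to 12151 bp at 24 h. The part of these mast cell genes, and of the smaller number of H3K4me3 peaks at 24 h, in the shorter H3K4me3 regions of Sox6 and Lin28b was not tested.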

How the data were processed

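Chromatin immunoprecipitation and sequencing gave 22 deposited peak lists of G1E-ER4 cells, 10 for H3K4me3, 10 for H3K27ac and 2 for CTCF, grouped by antibody and hours of estradiol as the labels give them. Per the labels, reads were aligned with Bowtie2 to mm10, and the paper's methods name MACS as the peak caller. Its version, control and threshold are not given in the sources used here. The score that the authors deposited for each peak served for ranking and filtering only; the score percentile of a peak is its rank within its list. A peak list without read counts cannot show differences in height, so that a site whose enrichment changed without crossing the caller's threshold, or without widening, leaves no trace here.

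Peaks were merged over the 10 lists of a mark where they overlapped or touched by 1 bp. Regions present in 2 lists or more, and loci (gene body plus 20 kb on each side) of all protein-coding genes, were fitted on log2(covered bp + 200) with limma 3.58.1 in R 4.3.3 (time point means over all 10 lists, trended variance, Benjamini-Hochberg adjustment over all features of the mark, threshold 0.05), which was tested on simulated data. The simulation used only regions with a peak in all 10 lists and normal noise. It does not bear on regions that have no peak in some lists. The coding transcript with the highest APPRIS rank gave the main start, and positive distances lie downstream of it. A region was classed as start site, start site of another gene, exonic, intronic or flank, in that order. All 8 genes are named, with every list's value for start-site regions and for intronic regions that changed, or for the most often marked intronic region. Genes most alike were the 3 with the highest Pearson correlation of locus covered length. The lists of corepressors, other regulators, paralogs, globin genes and cell type markers, like the 8 genes and the tests, were chosen with earlier results of these data known. Figures were drawn with Python 3.11.15 and matplotlib 3.10.9.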

Additional observations from a re-analysis of the deposited data

How the results depend on the processing

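Counts at the 8 genes were small and moved with the settings, and the cause was not tested. H3K4me3 regions changed between 0 and 24 h numbered 2, against 4 with the 0 and 24 h lists only, 1 with equal peak numbers in every list, and 0 with higher-scoring peaks only (scores at or above the median pooled over the lists of the mark). Leaving out 1 list at a time gave 0 to 3, and for any time point 0 to 2 (0 as reported). H3K4me3 loci gave 1 (Sox6) with the 0 and 24 h lists only and 0 to 1 on leaving out a list, lost H3K4me3 regions 0 with higher-scoring peaks only, 0 with equal peak numbers and 2 to 6 on leaving out a list, and gained ones 0 to 1. H3K27ac regions changed between 0 and 24 h numbered 4, against 2 with at least 5 lists, 1 with higher-scoring peaks only and 1 to 4 on leaving out a list. For any time point there were 5, against 2 with at least 5 lists, 3 with equal peak numbers, 1 with higher-scoring peaks only, 3 with a pseudocount of 1000 bp and 2 to 5 on leaving out a list. H3K27ac loci gave 1 with higher-scoring peaks only (Hic2, -1.50, adjusted p = 0.009 by limma) and 0 to 1 on leaving out a list, lost regions 1 with higher-scoring peaks only and 4 to 7 on leaving out a list, and gained ones 0 to 4. Of the CTCF peaks 12 of 35 and 19 of 42 were higher-scoring. A time point left with 1 list was assumed to vary like the others. No locus difference of the 8 genes had passed the test, and several turned: for H3K4me3 those of Hic2 (0.21), Lin28b (0.07) and Nfix (0.10) with higher-scoring peaks only and those of Klf3 (0.01) and Hic2 (0.01) without 1 list, and for H3K27ac those of Zbtb7a (0.50) and Nfix (0.44) with 50 kb flanks, Sox6 (0.14) with higher-scoring peaks only and Lin28b with equal peak numbers (-0.13) or without 1 list (-0.17 and -0.02). The Nfix call at -42.0 kb was made in 17 of 17 alternatives that could test it.

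Across the genome, called H3K4me3 regions numbered 235 between 0 and 24 h, 734 with the 0 and 24 h lists only, 90 with higher-scoring peaks only and 75 to 292 on leaving out a list, and called H3K27ac regions 1327, 2339, 405 and 1092 to 1585. For any time point H3K4me3 had 186, against 117 with at least 5 lists, 122 with higher-scoring peaks only, 113 with a pseudocount of 1000 bp and 67 to 248 on leaving out a list, and H3K27ac 1178, against 637 with at least 5 lists and 431 with higher-scoring peaks only. H3K27ac loci numbered 742, against 347 with the 0 and 24 h lists only, 280 with higher-scoring peaks only and 300 to 742 on leaving out a list, and H3K4me3 loci 151 and 64 to 211. With equal peak numbers, gained H3K4me3 regions rose from 74 to 192 and lost ones went from 630 to 215. With higher-scoring peaks only there were 28 gained and 277 lost, and for H3K27ac 238 and 499 in place of 833 and 1015.

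Lists with the same replicate number did not deviate together (correlations of -0.0758 to 0.0318 for H3K4me3 and -0.0293 to 0.0168 for H3K27ac over 10 pairs of time points each), so the numbers do not pair the samples. With the replicate block, 0 H3K4me3 and 3 H3K27ac regions of the 8 genes were called between 0 and 24 h, 0 and 5 for any time point and 0 loci of either mark, and over the genome 146 H3K4me3 and 1177 H3K27ac regions (64 and 978 for any time point).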
